A study of Homo sapiens with 18 samples.

Results

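NFYA, NFYB and NFYC encode the 3 subunits of NF-Y, the transcription factor that binds the CCAAT box of promoters. They are 3 of the 57905 Ensembl genes counted in this study, and their rows were found by gene symbol. NFYA was picked for this account because its RNA was higher in ABCC1-overexpressing cells in the second and the third experiment but not in the first. Its differences between the cell lines are therefore given as a description, with no test, and nothing is supported with them. NFYB and NFYC were included as its obligate partners and were not picked for their values.

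The study asked how ABCC1, an export pump of the ATP-binding cassette family, changes the processing of the amyloid precursor protein APP, and RNA sequencing was done to look for genes that respond to the pump. All cells were BE(2)-m17, an established human neuroblastoma line, and all carried the transposon vector pSBbi-Hyg-APP, so the control cells overexpressed APP too. The Puro group carried the empty vector pSBbi-Pur, and the ABCC1 group carried pSBbi-Pur-ABCC1, which holds codon-optimized human reference ABCC1. RNA was taken on the fourth day after plating in each of 3 experiments, labelled RNA1, RNA2 and RNA3, with 3 libraries per line in each experiment (18 libraries). The study describes antibiotic-selected stable lines and weekly platings of each line, so the libraries of a group are platings of 1 line, and p-values measure the spread between those platings. Its repeats used cryopreserved cells and then newly transfected cells. The labels do not say which of RNA2 and RNA3 is which. RNA1 was prepared with a poly(A) mRNA kit according to the sample characteristics and the study's methods, although the extraction text names the total RNA kit used for RNA2 and RNA3. Kit, cells and sequencing run therefore cannot be told apart between experiments, and the lines were compared within each experiment.

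NF-Y is a trimer. NFYB and NFYC pair through histone folds, the same fold that holds histones H2A and H2B together, and only the finished pair takes up NFYA, the subunit that reads the CCAAT sequence and is often described as the limiting one. CCAAT boxes that NF-Y binds are common in promoters of cell cycle, sterol synthesis, endoplasmic reticulum stress and MHC class II genes, where the factor works next to E2F, SREBP, ATF6 and RFX proteins.

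In the build of the count files (GRCh37), NFYA (ENSG00000001167) lies on the plus strand at chr6:41040684-41067715, with 3811 bases of exon. NFYB (ENSG00000120837) lies on the minus strand at chr12:104510855-104532067, with 4956 bases of exon. NFYC (ENSG00000066136) lies on the plus strand at chr1:41157320-41237275, with 5990 bases of exon. NFYA shares 75 exonic bases with OARD1 on the other strand, and NFYC shares 279 with the antisense gene NFYC-AS1. Counting ignored strand, so sense and antisense reads in the rest of these exons cannot be told apart.

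The sequence that NF-Y reads is shown first, from RefSeq promoter windows of GRCh38.p14 that run from 250 bases before to 50 bases after an annotated start. The motif searched was CCAAT, with its reverse complement ATTGG, on both strands, and the extended form CCAATCA was searched separately and is contained in the first. Of 35116 windows, 34.6% held CCAAT and 6.95% held CCAATCA, so the short motif is found in many promoters. NFYA had 1 window and NFYC had several, while NFYB had none in the table used. The NFYA box and 3 of the 5 NFYC boxes are printed below as the factor's own genes, with the 5 bases of the box in capitals and the distance of the first one from the start in front.
NFYA, position 46, chr6:41073009-41073023, plus strand: ggagcctctgATTGG
NFYC second window, position -136, chr1:40709220-40709244, plus strand: acgtgaacagCCAATcgtggctttg
NFYC second window, position -95, chr1:40709261-40709285, plus strand: agcagttcagCCAATgggaccactg
NFYC first window, position -98, chr1:40691596-40691620, plus strand: tcgccccttcCCAATtctcgcgaga
The NFYA box is in reverse orientation, sits just after the start and belongs to the extended form. The printed boxes of the second NFYC window are 41 bases apart, and that window holds another, in reverse orientation, further on at position 1. The remaining NFYC box is in the last of 3 windows, at position -177. A match is a description of the letters in the window and not a measured binding site.

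Across the series, the libraries held 8866994 to 57937653 read pairs assigned to genes, and RNA3 was the shallowest. The vector-encoded ABCC1 had 0 to 15 counts in the 9 Puro libraries and 51035 to 594404 in the 9 ABCC1 libraries, which matches every label. All 10 neuroblastoma markers that were checked, among them DBH and GATA3, had a mean of at least 1 CPM (a count divided by the total of its library and rescaled to the same size for all) in every group. Reads over 372 olfactory receptor genes, which neuroblastoma cells are not known to use, were near 0 in RNA1 but averaged 0.576 and 0.302 CPM per kilobase in the Puro and ABCC1 libraries of RNA2, and 1.57 and 1.24 in those of RNA3. Blood cell markers (6 genes) had a summed level of at most 0.257 CPM in any RNA1 library. That sum was 9.49 to 12.5 CPM in Puro against 2.03 to 7.74 CPM in ABCC1 libraries of RNA2, and 30.7 to 33.4 against 19.9 to 23.8 CPM in RNA3, with none of the 6 genes at 0 in every library of a group. These background signals moved with the line in RNA2 and RNA3, and their part in the results below was not tested beyond the fits with this background as a covariate.

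All 3 subunits were expressed in every library. These are bulk libraries, in which fewer cells of a type and less RNA per cell cannot be told apart. In RNA1, NFYA was measured with 2909 to 5805 counts per library, and its levels, in CPM scaled by the trimmed mean of M-values within an experiment, were 99.5, 107 and 110 in the Puro libraries. In the ABCC1 libraries of RNA1 they were 103, 106 and 94.6. The lines overlapped there. In RNA2, NFYA stood at 37.1, 40.2 and 31.4 CPM in Puro and at 64.7, 51.6 and 59.2 CPM in ABCC1 libraries. The corresponding RNA3 levels were 44.5, 62.9 and 36.1 CPM in Puro and 76.8, 82.5 and 92.3 CPM in ABCC1 libraries. Every ABCC1 library was above every Puro library in RNA2 and again in RNA3, and the Puro libraries spread more widely in RNA3 than in RNA2.

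**Figure D1:**
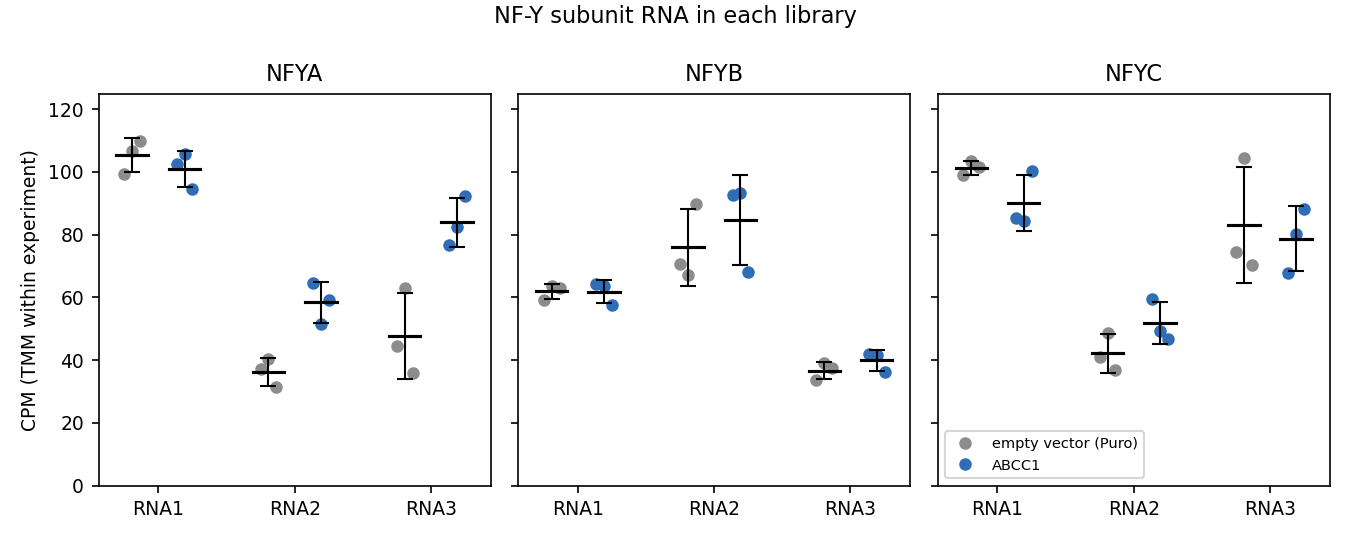
Level of NFYA, NFYB and NFYC in each library (points), in CPM scaled within the experiment, for empty vector cells (grey) and ABCC1 cells (blue); the horizontal bar is the mean of 3 libraries and the whisker is the SD. NFYA separates by line in RNA2 and RNA3, while NFYB and NFYC overlap between the lines in all 3 experiments, and the order of the subunits changes from one experiment to the next.

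As means, NFYA was 105.4 ± 5.38 CPM in Puro and 101 ± 5.74 CPM in ABCC1 cells of RNA1 (SD, n = 3 per line throughout), a log2 fold change of -0.063 (SE 0.054). In RNA2 it was 36.3 ± 4.45 CPM in Puro and 58.5 ± 6.55 CPM in ABCC1 cells, a log2 fold change of 0.69 (SE 0.16), or 1.61-fold. In RNA3 it was 47.8 ± 13.7 CPM in Puro and 83.9 ± 7.86 CPM in ABCC1 cells, a log2 fold change of 0.81 (SE 0.17), or 1.75-fold. These are the values that chose the gene. Among all genes tested, 13.5% had every ABCC1 library above every Puro library in RNA2, and 8.59% did in RNA3. From these shares nothing is read about NFYA, since its row was chosen on the same contrasts. The median log2 fold change of all genes was -0.19 in RNA2 and -0.091 in RNA3, and with relative log expression (RLE) size factors it was -0.082 and -0.029. Set against that median, NFYA was 0.88 higher in RNA2 and 0.90 higher in RNA3, and with the other size factors it was 0.89 and 0.90 higher.

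The reads over olfactory receptor genes were set against the NFYA level in the same libraries. Per kilobase of exon, that background was 6.05% of the NFYA level in Puro and 1.97% in ABCC1 libraries of RNA2. In RNA3 the shares were 12.5% and 5.64%. The NFYA level is the denominator of these shares, so they fall where NFYA is higher. With the background as a covariate of the fit, the log2 fold change of NFYA was 0.56 in RNA2 and 0.43 in RNA3.

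NFYB, one of the histone-fold subunits, had overlapping levels in the lines of RNA1, with 59.1, 63.6 and 62.9 CPM in Puro against 64.3, 63.8 and 57.5 CPM in ABCC1 libraries. In RNA2 its levels were 70.7, 67.2 and 89.8 CPM in Puro and 92.6, 93.2 and 68.0 CPM in ABCC1 libraries. In RNA3 they were 33.6, 39.1 and 37.4 CPM in Puro and 41.9, 41.7 and 36.1 CPM in ABCC1 libraries. A single ABCC1 library lay among the Puro libraries in RNA2 and RNA3, and the lines overlapped in all 3 experiments.

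The differences of NFYB did not pass. Its log2 fold change was -0.00021 in RNA1 (95% confidence interval -0.12 to 0.12, adjusted p = 0.998, edgeR quasi-likelihood test, p adjusted by Benjamini-Hochberg across every gene tested). In RNA2 it was 0.16 (interval -0.21 to 0.52, edgeR adjusted p = 0.623), and in RNA3 it was 0.12 (interval -0.20 to 0.44, edgeR adjusted p = 0.781). The upper ends of the last 2 intervals stand for 1.43-fold and 1.35-fold, so rises of up to that size lie within the intervals that 3 libraries per line give.

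NFYC, the other histone-fold subunit, was at 98.98, 103 and 101 CPM in the Puro libraries of RNA1 and at 85.4, 84.3 and 100.4 CPM in the ABCC1 libraries. Its log2 fold change there was -0.17 (interval -0.31 to -0.026, edgeR adjusted p = 0.0612), and 1 ABCC1 library, replicate 3, lay within the range of the Puro libraries. Without that library the log2 fold change was -0.25 (edgeR adjusted p = 7.04e-06). The ABCC1 libraries that are then left, replicates 1 and 2, were the most alike of all replicate pairs (chi-square per degree of freedom 1.53 over gene counts, against 2.23 for the next pair), whereas replicate 3 differed from them by 24.0 and 17.9 and also held 57 spike-in counts against 6 and 7. In RNA2, NFYC was at 40.9, 48.8 and 36.7 CPM in Puro and at 59.6, 49.4 and 46.8 CPM in ABCC1 libraries, a log2 fold change of 0.30 (interval -0.039 to 0.64, edgeR adjusted p = 0.289). In RNA3 the levels were 74.5, 104.3 and 70.3 CPM in Puro and 67.8, 80.2 and 88.2 CPM in ABCC1 libraries, a log2 fold change of -0.078 (interval -0.42 to 0.27, edgeR adjusted p = 0.881). With the olfactory receptor background as a covariate, the values of NFYC were 0.031 in RNA2 (edgeR adjusted p = 0.995) and -0.51 in RNA3 (edgeR adjusted p = 0.0882), and that of NFYB in RNA2 was -0.079 (edgeR adjusted p = 0.989).

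The partners' values in RNA2 depended on the scaling. With RLE factors NFYB was 0.27 there (edgeR adjusted p = 0.463) and NFYC 0.42 (edgeR adjusted p = 0.219), and DESeq2 gave 0.27 and 0.42 (adjusted p = 0.324 and 0.124). Set against the median of all genes in RNA2, NFYB was 0.35 and NFYC 0.49 higher, with 0.35 and 0.50 under RLE factors. In RNA3 they were 0.21 and 0.014 higher than the median, and 0.21 and 0.015 higher with RLE factors, where NFYB was 0.18 (edgeR adjusted p = 0.698).

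Neither NFYB nor NFYC passed an adjusted p of 0.05 in any experiment by edgeR (0 of 2 in each), or by DESeq2 or limma-voom, and 1 of these 6 comparisons, NFYC in RNA1, had an unadjusted edgeR p under 0.05. Over all genes tested, edgeR called 37.6% in RNA1, 1.7% in RNA2 and 2.8% in RNA3. Whether the ABCC1 effect on the partners differed between experiments was tested with an interaction term over the 18 libraries. For NFYB the effects in RNA2 and RNA3 exceeded that in RNA1 by 0.072 (interval -0.36 to 0.50) and 0.097 (interval -0.34 to 0.54) on the log2 scale. For NFYC the effect in RNA2 exceeded that in RNA1 by 0.38 (interval -0.087 to 0.85, edgeR adjusted p = 0.781). The NFYC effect in RNA3 minus that in RNA2 was -0.32 (interval -0.79 to 0.16, edgeR adjusted p = 0.771). None of these differences passed, against 1.1% of all genes for RNA2 against RNA1, 1% for RNA3 against RNA1 and 0.0238% for RNA3 against RNA2.

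**Figure D2:**
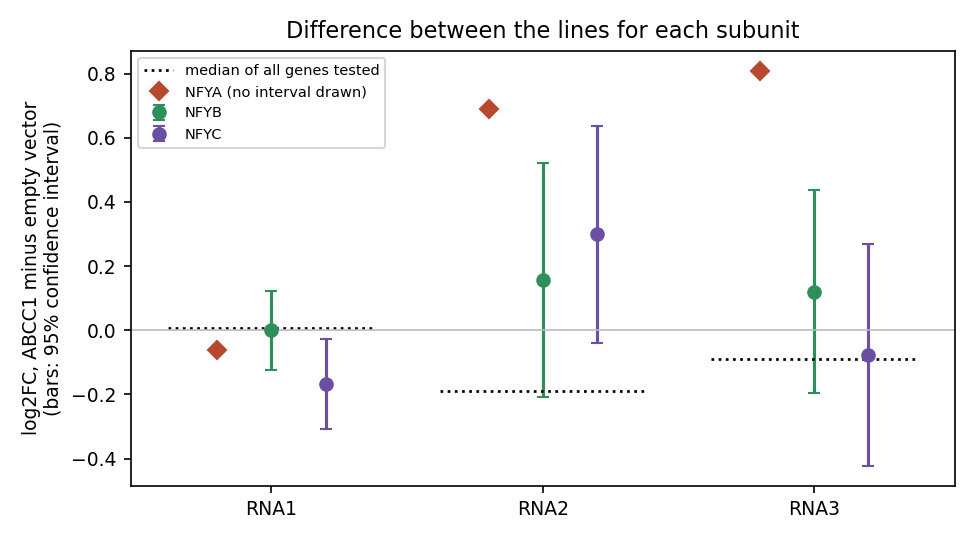
Log2 fold change of each subunit, ABCC1 minus empty vector, in the 3 experiments; bars on NFYB and NFYC are 95% confidence intervals, NFYA is drawn without an interval because it was chosen on these contrasts, and the dotted line is the median of all genes tested. The NFYB values (-0.00021, 0.16 and 0.12) have intervals that include 0 in all 3 experiments, and the NFYC values (-0.17, 0.30 and -0.078) have such intervals in RNA2 and RNA3.

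Levels of the subunits were next compared with each other within a library, as counts per kilobase of exon, which cancels the library size. In RNA1, NFYA was the most abundant subunit per kilobase in both lines, at 2.22 ± 0.0502 times NFYB in Puro and 2.12 ± 0.0419 times NFYB in ABCC1 cells. The ratios to NFYB were 2.19, 2.18 and 2.27 in Puro and 2.08, 2.15 and 2.14 in ABCC1 libraries, so each ABCC1 library was below each Puro library. Its ratio to NFYC there was 1.64 ± 0.0627 in Puro and 1.78 ± 0.263 in ABCC1 cells. Thus the RNA of the subunit that joins last was not the scarcest in the mRNA libraries.

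In RNA2 the NFYA to NFYB ratios were 0.683, 0.778 and 0.455 in Puro and 0.908, 0.720 and 1.13 in ABCC1 libraries, which overlapped. In RNA3 they were 1.72, 2.09 and 1.25 in Puro and 2.39, 2.57 and 3.32 in ABCC1 libraries, which did not. The NFYA to NFYC ratios of RNA3 were 0.939, 0.947 and 0.807 in Puro and 1.78, 1.62 and 1.65 in ABCC1 libraries. In RNA2 they were 1.43, 1.29 and 1.35 in Puro and 1.71, 1.64 and 1.99 in ABCC1 libraries. These ratios contain NFYA and are given as a description.

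The ratio of the histone-fold pair does not contain NFYA and was tested. NFYB stood to NFYC at 0.722, 0.744 and 0.750 in Puro and at 0.911, 0.914 and 0.692 in ABCC1 libraries of RNA1. In RNA2 the ratios were 2.09, 1.67 and 2.95 in Puro and 1.88, 2.28 and 1.76 in ABCC1 libraries. In RNA3 they were 0.545, 0.453 and 0.644 in Puro and 0.747, 0.628 and 0.495 in ABCC1 libraries. The lines overlapped each time, and the two-sided exact permutation p was 0.4, 0.7 and 0.5 in turn (0.7 each after adjustment over the 3 experiments), where 3 against 3 libraries cannot give less than 0.1.

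**Figure D3:**
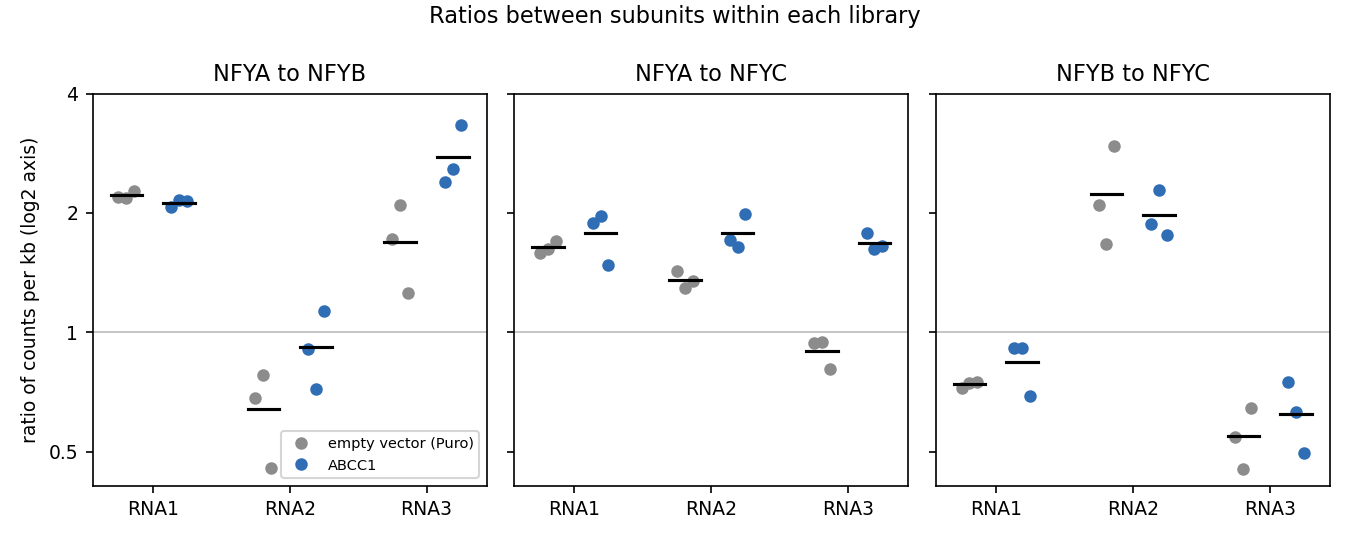
Ratio of counts per kilobase between subunits within each library, on a log2 axis, for empty vector cells (grey) and ABCC1 cells (blue), with the mean of 3 libraries as a bar. NFYB to NFYC overlaps between the lines in every experiment but lies between 0.692 and 0.914 in RNA1, between 1.67 and 2.95 in RNA2 and between 0.453 and 0.747 in RNA3.

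Levels were scaled within each experiment, so an order that crosses experiments depends on that scaling. Ordered by mean level on this scale, NFYB was highest in the ABCC1 cells of RNA2 (84.6 ± 14.4 CPM), followed by Puro of RNA2 (75.9 ± 12.2 CPM), both lines of RNA1 (61.9 ± 2.44 CPM in Puro and 61.9 ± 3.80 CPM in ABCC1 cells), ABCC1 of RNA3 (39.9 ± 3.25 CPM) and Puro of RNA3 (36.7 ± 2.83 CPM). Neighbouring lines of 1 experiment overlapped, and neighbours from different experiments did not. NFYC ran from 101.3 ± 2.22 CPM in Puro of RNA1 through 90.1 ± 9.02 CPM, both RNA3 groups (83.0 ± 18.6 and 78.7 ± 10.3 CPM) and ABCC1 of RNA2 (52.0 ± 6.75 CPM) to 42.2 ± 6.13 CPM in Puro of RNA2. Only the step from RNA3 to RNA2 was free of overlap on this scale, and this step did not pass in the shared fit described next. NFYA ran from RNA1 through ABCC1 of RNA3 and ABCC1 of RNA2 to the Puro groups of RNA3 and RNA2, and its 3 lowest groups overlapped with their neighbours.

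RNA2 and RNA3 share a kit by the labels, so the levels of NFYB and NFYC were compared between them within each line, in 1 fit with shared scaling. This comparison was chosen after the levels had been seen. NFYB was lower in RNA3 than in RNA2 by 3.50-fold in Puro (log2 difference -1.81, SE 0.18, edgeR adjusted p = 8.54e-10) and by 3.52-fold in ABCC1 cells (log2 difference -1.82, SE 0.18, edgeR adjusted p = 7.80e-10). NFYC did not pass, with a log2 difference of 0.22 in Puro (interval -0.15 to 0.59, edgeR adjusted p = 0.477) and -0.13 in ABCC1 cells (interval -0.49 to 0.24, edgeR adjusted p = 0.594). Of all genes tested, 12.2% were called lower in RNA3 in Puro and 15.9% in ABCC1 cells, while the median gene was 0.22 and 0.54 higher. The sizes depended on the scaling. With library totals alone, an alternative that was also chosen after seeing the data, NFYB was 2.12-fold lower in Puro and 2.05-fold lower in ABCC1 cells (edgeR adjusted p = 7.31e-07 and 1.17e-06). NFYC then passed as higher in RNA3, by 0.92 in Puro and 0.63 in ABCC1 cells on the log2 scale (edgeR adjusted p = 1.30e-05 and 0.000503), so no direction is given for NFYC. The ratio of NFYB to NFYC is free of the scaling, and its mean went from 2.24 in RNA2 to 0.547 in RNA3 in Puro (4.09-fold) and from 1.97 to 0.623 in ABCC1 cells (3.16-fold). The cells and the platings changed between these experiments and cannot be told apart, and whether the sequencing runs differed is not stated. Background reads per kilobase were 3.76% of NFYB in Puro of RNA2 and 21.3% in Puro of RNA3, and the part of this background in the difference was not tested.

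Some genes at the same loci were read too. OARD1, which removes ADP-ribose from proteins and overlaps NFYA in part, had log2 fold changes of -0.13, 0.33 and 0.12 in RNA1 to RNA3 and was not called by edgeR (adjusted p = 0.226, 0.235 and 0.791). ADCY10P1, a pseudogene that starts 1046 bases past NFYA, was 0.37 higher in RNA1 (SE 0.081, edgeR adjusted p = 0.00435), and its values of 0.32 and 0.41 in RNA2 and RNA3 did not pass (edgeR adjusted p = 0.313 and 0.171). RNA5SP370, a 5S ribosomal RNA pseudogene inside an NFYB intron on the other strand, had 0 counts in RNA1 and 176 to 965 in the libraries of RNA2 and RNA3. It lies in no NFYB exon and so adds no counts to NFYB. NFYC-AS1, which overlaps the start of NFYC on the other strand, rose in RNA1 by 0.80 (SE 0.11, edgeR adjusted p = 0.000278) from a mean of 2.79 to 4.88 CPM, while its values of 0.64 and 0.0035 in RNA2 and RNA3 did not pass (edgeR adjusted p = 0.457 and 0.998). Near the genes, RIMS3 (-0.19) and HCFC2 (-0.26) were called lower in RNA1 (edgeR adjusted p = 0.00631 and 0.00743).

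NFYC carries the miRNA genes MIR30E and MIR30C1 in its introns, and their mature 5p forms are shown because they share a seed, the bases 2 to 8 that pair with targets, printed in capitals.
hsa-miR-30e-5p: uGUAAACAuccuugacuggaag
hsa-miR-30c-5p: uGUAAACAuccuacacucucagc
The sequences are RefSeq entries (GRCh38.p14, plus strand of chromosome 1). Libraries for long RNA do not capture mature miRNAs, so the counts concern only longer RNA over these short exons. Both had 0 counts in every RNA1 library. In RNA2 and RNA3, MIR30E had 0 to 11 counts and MIR30C1 had 1 to 19 counts per library. MIR30C1 passed the filter in RNA3, with a log2 fold change of -1.18 (SE 0.69, edgeR adjusted p = 0.432). A count of 0 allows up to 3 counts in a library, for counting error only.

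The closest genes to each subunit were found by the Pearson correlation of log2 CPM over the 18 libraries, after centring each experiment on its mean, among 13341 genes. These are descriptions without a p, since libraries of a line share their cells and depth. For NFYA they included ICE1 (r = 0.963), NUFIP2 (0.962), ATF7IP (0.960) and NEFH (0.957). ICE1 belongs to the little elongation complex of small nuclear RNA transcription, ATF7IP binds the histone methyltransferase SETDB1, and NEFH encodes the heavy neurofilament chain. Their log2 fold changes lay between 0.49 and 0.65 in RNA2 and between 0.71 and 0.86 in RNA3, beside 0.69 and 0.81 for NFYA, and between -0.031 and 0.054 in RNA1. The correlation contains the difference between the lines that chose NFYA, so this likeness of fold changes follows from how the genes were found. For NFYB the leading genes were ISY1 (r = 0.862), WDR75 (0.811), ZNF706 (0.810), ZNF569 (0.809) and MRPL1 (0.805). For NFYC they included SAMD4B (r = 0.951), ZCCHC14 (0.925), GPI (0.925) and TMX2 (0.924). No subunit was among the closest genes of another. Between subunits r was 0.52 for NFYA and NFYC, 0.27 for NFYA and NFYB and 0.051 for NFYB and NFYC, the pair that folds together.

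Genes of the NF-Y pathway were then read from 7 lists with 98 symbols, of which 97 had a row. The lists were chosen with earlier results of these data known, so their shares beside all genes are a description. In RNA1, 44 of 91 tested list genes passed, 7 higher and 37 lower in ABCC1 cells (48.4%, against 37.6% of all genes). In RNA2, edgeR called 0 of 97 list genes, although 34 had an unadjusted p under 0.05 (against 21.2% of all genes), DESeq2 called 18 (against 8.0% of all genes) and limma-voom called 4 (against 3.83% of all genes). The list genes called by DESeq2 and by limma-voom were all higher in ABCC1 cells. In RNA3 an unadjusted p under 0.05 was reached by 29 list genes and by 15.2% of all genes. In RNA3, 8 of 97 passed, 3 higher and 5 lower (8.25%, against 2.8% of all genes). These RNA3 calls changed with the setting. With the background covariate, 0 list genes were higher and 11 lower, while with RLE factors 3 were higher and 3 lower. Without Puro replicate 2 the split was 18 higher and 5 lower. It was 0 and 3 without Puro replicate 3 and also without ABCC1 replicate 3, and 1 and 3 without Puro replicate 1, and 1 and 2 without ABCC1 replicate 2. Over all genes of RNA3, 741 were called higher and 280 lower, against 189 and 599 with the covariate and 966 and 199 with RLE factors. The median log2 fold change of the list genes was -0.082, 0.15 and 0.0018 in the 3 experiments, beside 0.0074, -0.19 and -0.091 over all genes.

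**Figure D4:**
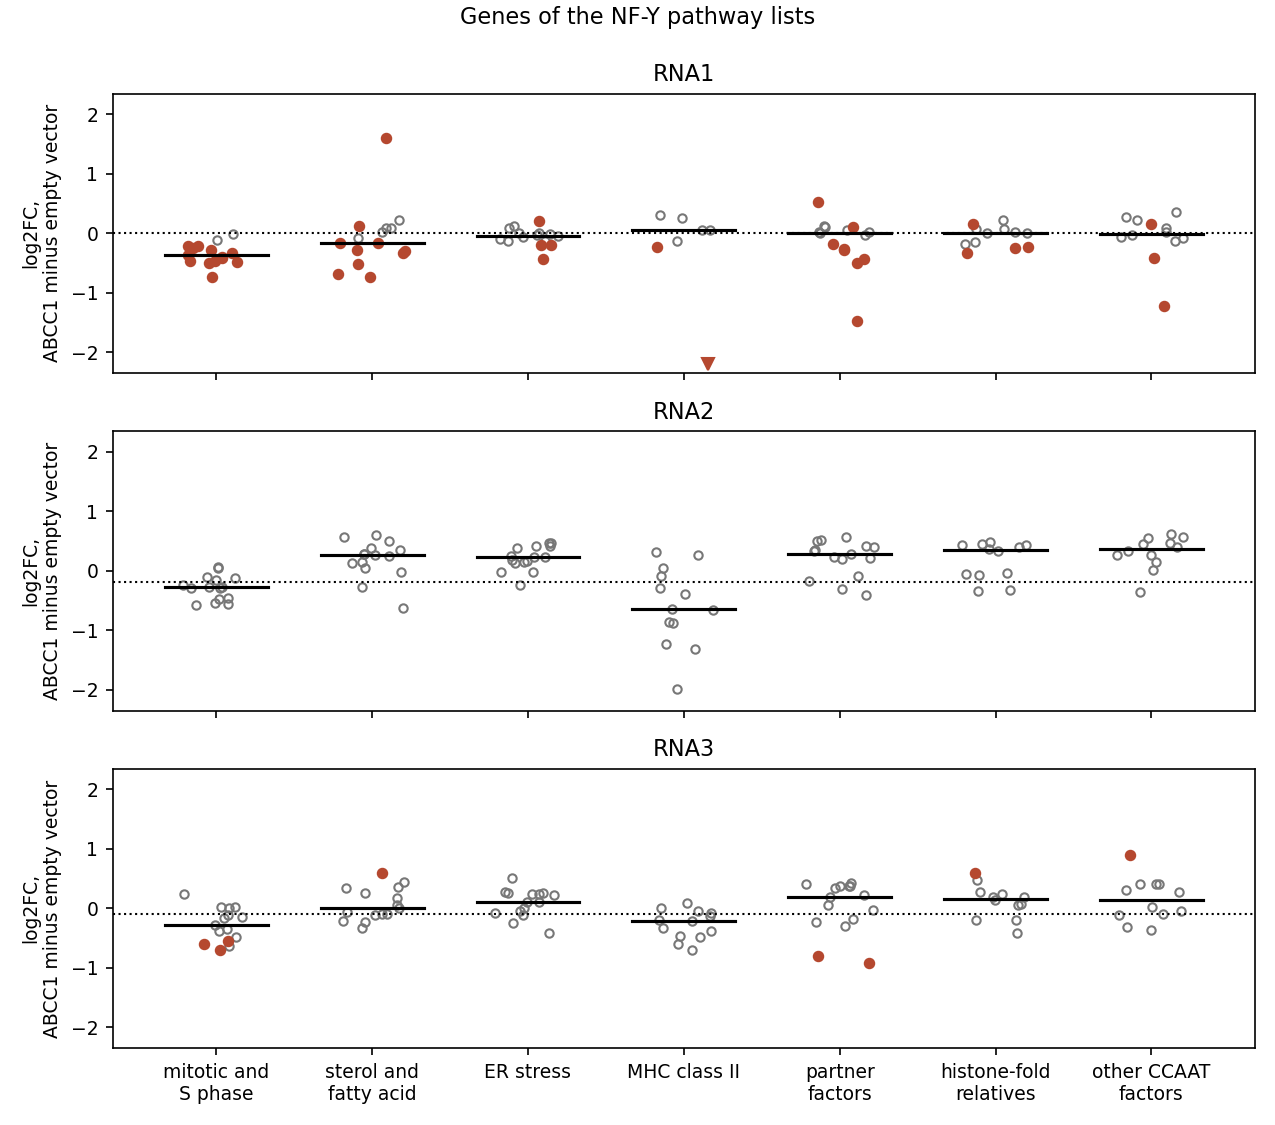
Log2 fold change, ABCC1 minus empty vector, of each tested gene in 7 lists around NF-Y (points), with the median of the list as a bar and the median of all genes as a dotted line; filled points passed an adjusted p of 0.05 and the triangle marks HLA-DRB1 at -4.95, below the axis. Mitotic genes lie below 0 in RNA1, where 13 of 15 passed, and 3 of 15 passed in RNA3.

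The first list held 15 mitotic and S-phase genes, chosen because their promoters are known for CCAAT boxes, though with earlier results of these data known. In RNA1, 13 of the 15 fell and none rose, with a median log2 fold change of -0.36, where 19.7% of all genes were called lower. With the background covariate 7 of the 15 passed, all lower (median -0.38). In the joint fit of 18 libraries only CDC25B passed (median -0.26). The background of RNA1 was 0.00449 to 0.00529 CPM per kilobase in Puro and 0.00377 to 0.00435 in ABCC1 libraries, so this covariate separated the lines. The SE of NFYB in RNA1 was 0.055 in the main fit, 0.10 with the covariate and 0.15 in the joint fit. RNA1 calls lost in either fit, here and below, therefore do not show a part of the background in them. The largest changes were in CDC25B, a phosphatase that activates cyclin-dependent kinases (-0.73, SE 0.074, edgeR adjusted p = 4.93e-05), and in PTTG1, the securin that holds back separase (-0.50, SE 0.055, edgeR adjusted p = 5.68e-05). Marker lists of other cell types moved in the same libraries, where 37.6% of all genes were called in either direction. Of 6 tested mesenchymal or fibroblast markers, 4 were called higher and 1 lower, and the summed level of the 7 on the list was 194.2 to 199.2 CPM in Puro and 254.4 to 260.8 CPM in ABCC1 libraries, with COL1A2 at 0 in the ABCC1 group. The 7 neural progenitor or glial markers summed to 12.45 to 14.02 CPM in Puro and 20.41 to 21.19 CPM in ABCC1 libraries, with 1 called higher and 1 lower of 4 tested and none at 0 throughout a group. Of the 10 neuroblastoma markers 5 were called lower and 2 higher, and the part of these shifts in the RNA1 results was not tested. None of the 15 passed by edgeR in RNA2, where 5 had an unadjusted p under 0.05 (against 21.2% of all genes), all lower. In RNA3, where 0.767% of all genes were called lower, 3 fell, namely CCNB2, a mitotic cyclin (-0.70, SE 0.16, edgeR adjusted p = 0.00487), CDC20, an activator of the anaphase-promoting complex (-0.60, SE 0.16, edgeR adjusted p = 0.0192), and PTTG1 (-0.55, SE 0.17, edgeR adjusted p = 0.0493). The CCNB2 call was kept in 13 of 14 alternatives and lost without ABCC1 replicate 2. The CDC20 call was kept in 7 of 14 and was lost with RLE factors, in the joint fit and when any library other than Puro replicate 2 was left out. That of PTTG1 was kept in 3 of 14 and was lost whichever of the 6 libraries was left out. CCNB2 had mean levels of 45.1 ± 9.54 CPM in Puro and 27.8 ± 1.75 CPM in ABCC1 cells of RNA3, against 47.8 ± 13.7 and 83.9 ± 7.86 CPM for NFYA in the same libraries.

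The boxes of these mitotic promoters are printed because CCNB2, CDC20 and PTTG1 were called in RNA1 and RNA3, again with the box in capitals and the position of its first base in front.
CCNB2, position -120, chr15:59105016-59105040, plus strand: gaaaattcagCCAATgagagtgcga
CCNB2, position -87, chr15:59105049-59105073, plus strand: cttgtgttggCCAATgagaacagcg
CCNB2, position -54, chr15:59105082-59105106, plus strand: gcagggccgcCCAATggggcgcaag
CDC20, position -100, chr1:43358871-43358895, plus strand: gccggagaggCCAATgggctagggc
CDC20, position -55, chr1:43358916-43358940, plus strand: tttgaaggagCCAATaggcgctcgg
PTTG1 first window, position -103, chr5:160421742-160421766, plus strand: ggtcctttccATTGGttctacttgg
PTTG1 first window, position -51, chr5:160421794-160421818, plus strand: ggcggaagagCCAATtgggccgcga
The printed CCNB2 boxes are 33 bases apart, with another box 124 bases further out at position -244, and those of CDC20 are 45 bases apart. The PTTG1 boxes are 52 bases apart, the first in reverse orientation, and the second overlaps a reverse box at position -48. All 15 genes of this list had CCAAT in at least 1 window, against 39.7% of the 27305 genes with a window, which follows in part from how the list was chosen. Over all genes, the motif was set against the fold changes as a description. In RNA3 the median log2 fold change was -0.029 for the 7167 genes with CCAAT and -0.037 for the 10167 without it. Genes called higher made up 3.32% and 3.16% of these, and genes called lower 1.20% and 0.925%. In RNA2 the shares called higher were 1.94% with CCAAT and 2.04% without it, and the shares called lower were 0.570% and 0.513%. In RNA1 they were 17.8% and 19.45% called higher, and 22.5% and 19.6% called lower. For the extended form CCAATCA, the shares called higher with and without it were 18.9% and 18.7% in RNA1, 2.56% and 1.94% in RNA2, and 4.47% and 3.09% in RNA3. Its shares called lower were 23.4% and 20.5% in RNA1, 0.833% and 0.504% in RNA2, and 1.29% and 1.01% in RNA3. No test was made of these shares.

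The next list held sterol and fatty acid genes, at whose promoters NF-Y works beside SREBP. In RNA1, 8 of 15 fell and 2 rose (66.7% called, against 37.6% of all genes), and the sterol carrier gene STARD4 was among those that fell (-0.74, SE 0.045, edgeR adjusted p = 7.68e-07). None of the 15 passed by edgeR in RNA2, where 4 had an unadjusted p under 0.05 (against 21.2% of all genes), none of them lower. In RNA3 only FDFT1, squalene synthase, passed (0.60, SE 0.17, edgeR adjusted p = 0.0318). Its call was kept in 9 of 14 alternatives and lost with the background covariate (0.30, edgeR adjusted p = 0.484) and without Puro replicate 1 or 3 or ABCC1 replicate 2 or 3. Of 15 endoplasmic reticulum stress genes, 3 fell and 1 rose in RNA1 (26.7%, below the 37.6% of all genes), led by HERPUD1 of the degradation machinery (-0.44, SE 0.044, edgeR adjusted p = 2.95e-05, lost in the joint fit) and the co-chaperone gene DNAJB9 (0.20, SE 0.056, edgeR adjusted p = 0.0149). The DNAJB9 call was lost with the covariate, in the joint fit and without Puro replicate 2 or 3 or ABCC1 replicate 1 or 2. By edgeR none of these stress genes passed in RNA2 or RNA3, where 4 and 2 had an unadjusted p under 0.05 (against 21.2% and 15.2% of all genes).

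The MHC class II list held 13 genes, of which 7 could be tested in RNA1. Its HLA genes and CD74 had means of at most 3.24 CPM there and the activator CIITA at most 0.108 CPM, whereas the 3 RFX genes stood between 24.1 and 70.3 CPM. HLA-DRB1 had 146, 84 and 102 counts in the Puro libraries and 8, 3 and 4 in the ABCC1 libraries (3.23 ± 0.136 CPM and 0.101 ± 0.0369 CPM). It is among the calls, but it passed the filter on low counts only through the Puro group, and HLA genes share reads with close copies, so its difference is given as a description. RFXAP, a subunit of the RFX complex that binds next to NF-Y, fell by 0.23 on the log2 scale (SE 0.070, edgeR adjusted p = 0.0267), a call lost with the covariate, in the joint fit and when any of the 3 Puro libraries was left out. None of the 13 passed by edgeR in RNA2 or RNA3, where 3 had an unadjusted p under 0.05 in each (against 21.2% and 15.2% of all genes). All of these were lower, as was the blood marker level in these libraries.

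Of 15 partner factors and coactivators, 6 fell and 2 rose in RNA1 (53.3% called, against 37.6% of all genes), while the median of the list was 0.00056 there, 0.28 in RNA2 and 0.19 in RNA3. TP73, which encodes a transcription factor that binds NF-Y, fell most (-1.48, SE 0.077, edgeR adjusted p = 2.39e-07). FOS, an immediate early gene, rose (0.53, SE 0.11, edgeR adjusted p = 0.00349), a call lost with the covariate (edgeR adjusted p = 0.0867) and in the joint fit. In RNA3, 2 of the 15 fell, TP73 again among them (-0.80, SE 0.17, edgeR adjusted p = 0.00103). Both TP73 calls were kept in all 14 alternatives. None of the 15 passed by edgeR in RNA2, where 7 had an unadjusted p under 0.05 (against 21.2% of all genes), 1 of them lower.

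The remaining lists hold relatives of the subunits. Of 12 tested histone-fold genes, 3 fell and 1 rose in RNA1 (33.3%, against 37.6% of all genes), with TAF12 (-0.34, SE 0.070, edgeR adjusted p = 0.0036) and TAF6 (-0.25, SE 0.063, edgeR adjusted p = 0.0096), both subunits of TFIID, changed most. These calls were lost with the covariate and in the joint fit. In RNA3, POLE3, a DNA polymerase epsilon subunit with the histone fold of NFYB, was the single call (0.60, SE 0.18, edgeR adjusted p = 0.0484), kept in 8 of 14 alternatives and lost with no filter on low counts, with the covariate (0.30, edgeR adjusted p = 0.471) and without Puro replicate 1 or 3 or ABCC1 replicate 2 or 3. Of 12 other factors named for CCAAT or binding near it, YBX3 (-1.22, SE 0.18, edgeR adjusted p = 0.000447) and NFIX (-0.42, SE 0.079, edgeR adjusted p = 0.00243) fell in RNA1 and 1 rose (25% called). The NFIX call was lost with the covariate and in the joint fit, and that of YBX3 was kept in all 14 alternatives. CEBPG, a C/EBP family member that does not share the NF-Y site, was the single call of RNA3 (0.90, SE 0.20, edgeR adjusted p = 0.00169), from 134.8 ± 38.1 CPM in Puro to 252.2 ± 33.9 CPM in ABCC1 cells. It was lost with the covariate (0.42, edgeR adjusted p = 0.203) and without Puro replicate 3 or ABCC1 replicate 3. By edgeR neither list had a call in RNA2. There 6 histone-fold genes and 5 of the other factors had an unadjusted p under 0.05 (against 21.2% of all genes), none of them lower.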

How the data were processed

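RNA from 18 cultures was sequenced in 3 experiments. The deposited files hold raw counts of read pairs per gene, which the authors made with bcl2fastq 2.18, STAR 2.7.3a and featureCounts of Subread 2.0.0 on GRCh37, over exons and without regard to strand. Nothing was normalized before deposit. The members and gene lists were chosen with earlier results of these data known.

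Genes were kept with edgeR's filterByExpr (minimum count 10), scaled by the trimmed mean of M-values, and compared between lines within each experiment with edgeR 4.0.16 (robust quasi-likelihood test, Benjamini-Hochberg adjustment over all genes tested, call at 0.05). CPM values use these factors. The authors' methods name DESeq2; it was run here as an alternative (DESeq2 1.42.0), as was limma-voom 3.58.1, in R 4.3.3. The fit was tested on simulated data with changes larger than any reported between the lines for the subunits, so that test does not bear on small differences. Other alternatives were RLE factors, no filter, at least 10 counts in every library, a replicate block, a covariate for olfactory receptor background, a joint fit, leaving out each library and, between RNA2 and RNA3, library totals alone. Intervals of log2 fold changes come from the spread between libraries, and the limit that a count of 0 allows covers counting error only. Replicate pairs differed beyond sampling noise (chi-square per degree of freedom 1.53 to 25.8 over 18 pairs), so no library was a copy. Symbols were found for 51996 of 57905 genes.

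Named genes were the members, up to 2 called genes with the largest change per list and experiment (mean of at least 1 CPM), any list gene called in the same direction in all 3 experiments (none was), the 5 genes closest to each member, and genes overlapping a member or within 50 kb of it. Some genes that this rule names are not reported here.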

Additional observations from a re-analysis of the deposited data

How the results depend on the processing

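Over 416 alternative values, 374 were counted as the same. For NFYA this meant a move smaller than the replicate spread. For counts of called genes it meant a total within a fixed factor of the main one, whatever its split by direction. Values of NFYB and NFYC that passed in neither fit were counted as the same even where the sign changed. An example is NFYB in RNA2 with the covariate (-0.079, main 0.16). The joint fit of 18 libraries put NFYA in RNA1 at 0.038 (main -0.063), and the background covariate put NFYA in RNA3 at 0.43 (main 0.81). NFYC in RNA1 passed without the filter on low counts (-0.14, edgeR adjusted p = 0.0241) and without RNA1 ABCC1 replicate 3, and its values with 1 library left out ran from -0.25 to -0.12. Left-out libraries gave NFYA values from -0.11 to -0.015, 0.61 to 0.78 and 0.68 to 1.07 in RNA1 to RNA3. In RNA3 those of NFYC ran from -0.16 to 0.13, and in RNA1 those of NFYB from -0.039 to 0.054, so neither had a fixed sign. In RNA2 left-out libraries gave NFYB 0.084 (without Puro replicate 2) to 0.33 (without ABCC1 replicate 3) and NFYC 0.20 (without ABCC1 replicate 1) to 0.43 (without Puro replicate 2), and in RNA3 they gave NFYB 0.091 (without Puro replicate 1) to 0.19 (without ABCC1 replicate 3), none past the threshold.

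Counts of called genes were less stable, and the cause was not tested. In RNA1, 1705 genes (17 list genes) passed with the covariate and 1528 (7 list genes) in the joint fit, against 6382 (44). The covariate separated the lines of RNA1, and the SE of NFYB was larger in both fits, so these lower counts do not measure the part of the background. In RNA2 the main count was 581 (0 list genes). It became 2727 (18, all higher) with DESeq2, 1307 (4, all higher) with limma-voom, 1086 with RLE factors, 1402 (5, all higher) without the filter, 9 with the covariate and 4924 (7 list genes higher and 5 lower, 12 in all) in the joint fit, and 3 list genes, all lower, passed with at least 10 counts in every library, where the split over all genes was 350 higher and 438 lower, against 425 and 156. Leaving out a library gave 8 (Puro replicate 3) to 1359 (ABCC1 replicate 3) genes and 0 to 1 list genes. In RNA3 the main count was 1021 (8 list genes), against 1553 with DESeq2, 1725 with at least 10 counts in every library and 1885 with the replicate block, and a left-out library gave 394 (ABCC1 replicate 3) to 2762 (Puro replicate 2) genes and 3 to 23 list genes. The main split of RNA3, 741 higher and 280 lower, was 189 and 599 with the covariate and 966 and 199 with RLE factors. In RNA2 and RNA3 every left-out library moved the count of called genes.

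Deviations of same-numbered libraries of the lines had mean correlations of -0.041, -0.061 and 0.045 in RNA1 to RNA3. Those of differently numbered libraries were 0.020, 0.031 and -0.022. Best matches with the own number were 0, 0 and 4 in turn. With 3 libraries per line this cannot decide whether the numbers pair the libraries, least of all in RNA3, and the main fit treated them as unpaired. The replicate block changed no call for NFYB or NFYC. Between RNA2 and RNA3, library totals alone gave NFYC 0.92 in Puro (main 0.22) and 0.63 in ABCC1 cells (main -0.13), both past the threshold, while NFYB kept its call in all alternatives. RNA3 had the fewest reads, with 346 to 1150 counts per library for the subunits.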
